A study of Mus musculus with 12 samples.

Results

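The response of hepatocyte chromatin to a fast was measured in frozen mouse liver, as the difference between 3 libraries from fasted and 3 libraries from fed mice at every peak of the deposited table. All 52530 peaks and 6 of the 12 libraries of the series entered, chosen by their labels and not by any measured value. The assay, ATAC-seq, uses a transposase that inserts sequencing adapters into accessible DNA, so reads gather at open chromatin. Nuclei came from female HEP-INTACT mice, in which hepatocyte nuclei carry a genetic tag and are pulled from the liver on beads. The fast lasted 16 h and began at ZT12, when the lights go off and mice start to feed, and the control mice ate freely and were killed at the same time of day. Fed and fasted mice were different animals, 3 in each group, and the tissue was frozen before the nuclei were isolated. The other 6 libraries came from fresh liver of the same 6 mice and serve here only for comparison with the frozen ones. The labels give no strain, age or driver of the tag.

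After a meal insulin turns on the genes of fat and cholesterol synthesis through the SREBP transcription factors, which bind sterol elements in promoters. During a fast glucagon and glucocorticoids rise, fatty acids reach the liver from fat tissue, and the nuclear receptor PPAR-alpha switches on fatty acid oxidation, ketone body formation and hormones such as FGF21. Accessible sites near these genes include promoters at the gene starts and enhancers farther away, so the response can be read from both.

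The frozen libraries held 3692152 to 9203786 reads in peaks, and their median peak held 51 to 133 reads. The shallowest was fasted library C, with 21 peaks at 0 and correlations across peaks with the other fasted libraries of 0.936 and 0.945, against 0.970 between those. Values spread wider over peaks in fasted libraries, with an SD of log2 values of 1.11 to 1.28 against 1.01 to 1.04 in fed ones. Of 12 hepatocyte markers 10 had peaks within 1 kb of their start, with a summed level of 4386 to 4941 normalized reads in fed and 4837 to 5285 in fasted libraries. Of 10 endothelial markers only Tie1 had one, at 48.2 to 71.5 reads in fed and 24.4 to 31.2 in fasted libraries, a called loss. Reln was the only one of 10 stellate cell markers with a peak at its start (51.2 to 134 reads in fed and 77.6 to 111 in fasted libraries), and Muc1 and Sox9 were the only ones of 8 bile duct markers (summed level 169.97 to 191 and 154 to 177). None of the 10 macrophage markers or the 10 lymphocyte markers had one, Adgre1, Clec4f, Ptprc and Cd3e included. Over all distances endothelial markers had 7 lower and 4 higher of 20 peaks (35% and 20%, against 15% and 12.8% of all peaks). Of these, 2 were lower at Tie1 and 2 at Cdh5, and 2 were higher at Stab2 and 1 at Stab1. One macrophage peak of 3 (Csf1r, -1.16), 1 stellate peak of 4 (Reln) and both peaks of Spp1 among 7 bile duct peaks were lower, and hepatocyte markers had 20 higher and 14 lower of 111. Their part in other results was not tested. In libraries of many nuclei, fewer nuclei with an open site and less opening per nucleus cannot be told apart.

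Promoters of 4 genes that were more accessible in fasted mice and of 2 sterol genes that were less so are printed to show where the measured peaks lie. Each stretch is the part of the peak that lies before the gene start, printed 5′ to 3′ on the gene's strand from the RefSeq promoter table for GRCm38.p6, the assembly of the mm10 build, and capitals mark matches to the motifs searched. The Acot1 stretch (chr12:84009400-84009501, plus strand) belongs to a thioesterase gene of fatty acid oxidation, Cdkn1a (chr17:29093620-29093768, plus) to a cell cycle inhibitor, Fgf21 (chr7:45615491-45615598, minus) to a fasting hormone and Plin4 (chr17:56109807-56110007, minus) to a lipid droplet protein. Idi1 (chr13:8885463-8885605, plus) and Mvd (chr8:122443423-122443543, minus) encode enzymes of cholesterol synthesis. The capitals are a GC box in Cdkn1a, an NFI site followed by an E-box in Fgf21 and a GT box in Plin4, and the other 3 stretches held no match.
Acot1: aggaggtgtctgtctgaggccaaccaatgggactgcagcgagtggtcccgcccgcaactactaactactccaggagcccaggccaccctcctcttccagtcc
Cdkn1a: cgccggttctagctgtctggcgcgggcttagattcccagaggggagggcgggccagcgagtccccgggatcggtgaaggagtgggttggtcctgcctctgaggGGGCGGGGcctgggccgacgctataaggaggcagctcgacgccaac
Fgf21: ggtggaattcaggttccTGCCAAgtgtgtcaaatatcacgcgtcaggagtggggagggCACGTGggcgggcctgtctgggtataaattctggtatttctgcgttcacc
Plin4: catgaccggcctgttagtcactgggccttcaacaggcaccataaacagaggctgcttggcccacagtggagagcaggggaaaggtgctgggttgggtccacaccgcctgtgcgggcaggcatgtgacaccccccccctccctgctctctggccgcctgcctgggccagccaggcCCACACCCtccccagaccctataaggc
Idi1: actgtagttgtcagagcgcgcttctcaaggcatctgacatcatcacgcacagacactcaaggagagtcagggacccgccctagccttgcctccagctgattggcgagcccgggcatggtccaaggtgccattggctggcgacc
Mvd: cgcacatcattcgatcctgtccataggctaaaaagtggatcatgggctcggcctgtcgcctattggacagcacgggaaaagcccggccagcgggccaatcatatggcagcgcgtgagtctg

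Fasting changed accessibility at 14578 of 52530 peaks (27.8%) by limma (adjusted p under 0.05, two-sided, with log2 of the normalized reads plus 1). Of these, 6717 peaks were higher in fasted mice (12.8% of all peaks) and 7861 were lower (15% of all peaks). The median difference on the log2 scale was 0.60 among the higher peaks and -0.93 among the lower ones, against 0.05 over all peaks. Larger differences were mostly losses: 1109 peaks were higher by more than 1 (2.11%) and 3482 were lower by more than 1 (6.63%). The 3 fasted and the 3 fed libraries did not overlap at 23701 peaks (45.1%). Without fed library B the count of called peaks fell to 8711, with 3866 higher and 4845 lower. Scaling each library to a common median at gene starts (peaks within 1 kb) gave 3434 higher and 10568 lower peaks. The median difference over all peaks was then -0.08. Counts of gene lists under these settings are to be read against these totals. Because nearest genes are the authors' annotation, a peak named for a gene need not act on it.

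Among called peaks above the median level whose groups did not overlap, the largest gains lay mostly away from gene starts. So did most of all 52530 peaks, of which 18534 lay within 1 kb of a start. Because the rule takes only called peaks without overlap, neither trait is separate evidence for the peaks it names. The mean level can also pass the limit through the higher group alone. A peak nearest to Armc12 (chr17:28523026-28523226), within the long noncoding gene E230001N04Rik, held 13.1, 15.9 and 18.4 reads in fed and 246, 186 and 260.4 in fasted libraries. The log2 difference at this peak was 3.78 ± 0.21. In an intron of Cbfa2t3, which encodes a transcriptional corepressor, the fed libraries held 32.2, 35.04 and 30.7 reads and the fasted ones 264, 237 and 198, a log2 difference of 2.79 ± 0.17. Sik1, a kinase gene induced by cAMP, had a peak 18.4 kb before its start (chr17:31874086-31874286) with 27.4, 38.2 and 45.6 reads in fed and 218, 168 and 218 in fasted libraries. The log2 difference there was 2.43 ± 0.20. The other peaks of the 10 largest gains were nearest to 1010001N08Rik, Gm28856, Pdk4, Ankrd46, Acot1, Plscr4 and Cdkn2aipnl, with log2 differences of 2.26 to 3.41. At Gm28856 the fed libraries spread from 14.9 to 108 reads, so the size of its gain of 3.19 ± 0.50 is poorly fixed.

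The largest losses by the same rule reached a greater size. A peak 59.7 kb from Shcbp1 (chr8:4839177-4839377) fell from 309, 271 and 232 reads in the fed to 10.01, 11.3 and 13.4 in the fasted libraries, a log2 difference of -4.43 ± 0.21. One nearest to Gm13547, in an intron of Rapgef1 (chr2:29737636-29737836), fell from 298, 320.1 and 232 to 15.5, 23.5 and 24.5 reads. Pnpla5, which encodes a triglyceride lipase, had 194, 261 and 161 reads in fed and 43.7, 21.8 and 13.4 in fasted libraries in an intron (chr15:84115158-84115358), with a log2 difference of -3.05 ± 0.34. A peak named for Mir6392, within Pnpla3, a lipid droplet gene (chr15:84168865-84169065), changed by -2.73 ± 0.19, and one 34.2 kb before Insig1 (chr5:28037140-28037340) by -2.68 ± 0.28. The remaining 5 were nearest to Mcm5, Fzd7, Sept7, Gm5464 and Mir705, with log2 differences between -2.82 and -2.27.

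Peaks nearest to genes of fatty acid oxidation were called higher far more often than lower. Of 127 peaks nearest to 27 of these genes 51 rose and 7 fell (40.2% and 5.51%, against 12.8% and 15% of all peaks). Their median log2 difference was 0.24 against 0.05 over all peaks. The Acot1 promoter (chr12:84009400-84009600), named above for the size of its gain, held 57.2, 31.9 and 47.3 reads in fed and 201, 234 and 263 in fasted libraries. Its log2 difference was 2.36 ± 0.20. The promoter of Cyp4a14, a fatty acid hydroxylase and classic PPAR-alpha target, rose from 40.5, 31.9 and 37.7 to 178, 178 and 165 reads (2.22 ± 0.17 on the log2 scale), and all 4 of its peaks were called higher. At Pdk4, which encodes a kinase that keeps pyruvate from being burned, 7 of 10 peaks rose and 2 fell. Its promoter (chr6:5496352-5496552) held 356, 329.7 and 332 reads in fed and 578, 567 and 609.7 in fasted libraries, a difference of 0.78 ± 0.07 on the log2 scale, and a peak 13.7 kb upstream rose by 2.50 ± 0.20. Further into the pathway, Hadh had 7 higher of 12 peaks, Ehhadh 5 of 8, and Hadha and Hadhb 2 of 3 and 2 of 2, with no lower ones. These encode enzymes of the beta-oxidation spiral.

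The starts of some central genes did not pass the test. Cpt1a, the gate for fatty acids into mitochondria, held 324, 350.4 and 333 reads in fed and 351, 361 and 347 in fasted libraries at its promoter (0.07 ± 0.08 on the log2 scale, adjusted p = 0.497 by limma). The groups overlapped there, although 4 of the 11 peaks of Cpt1a rose and 1 fell. The promoter of Ppara itself had a log2 difference of 0.06 ± 0.07. The differences of both promoters became negative, and still did not pass, with libraries scaled to peaks near gene starts or quantile normalized. Ketone body genes had 18 higher and 3 lower of 55 peaks (32.7% and 5.45%, against 12.8% and 15% of all peaks), with a median of 0.30. Acat1, which joins acetyl-CoA units, had 6 higher of 9, and a peak in its intron rose from 94.1, 93.97 and 84.1 to 166, 152 and 162 reads. Bdh1, which makes beta-hydroxybutyrate, had 3 higher of 6. With libraries scaled to peaks near gene starts the counts were 42 and 8 for fatty acid oxidation and 12 and 3 for ketone bodies. All 52530 peaks then had 3434 higher and 10568 lower.

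**Figure D1:**
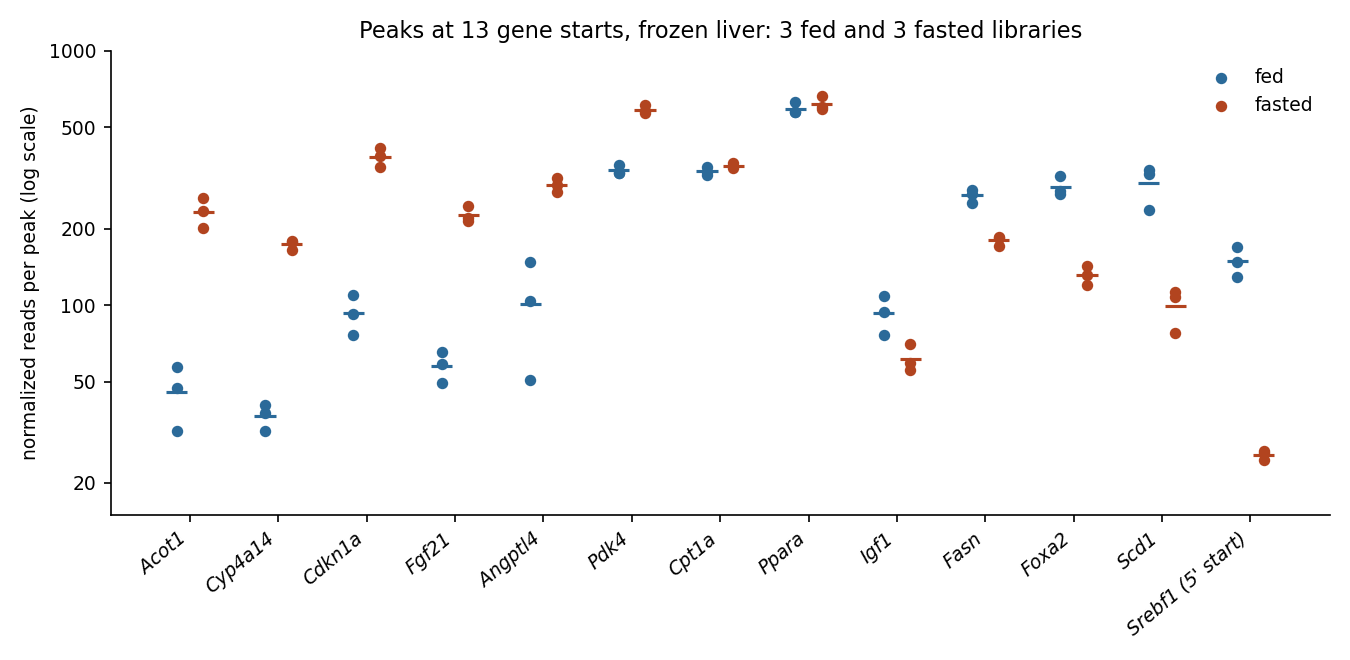
Normalized reads per peak on a log axis at 13 gene starts in the 3 fed (blue) and 3 fasted (red) frozen libraries, with a bar at each group's mean. The groups stand apart at the genes from Acot1 to Pdk4 and from Igf1 to Srebf1 and overlap at Cpt1a and Ppara.

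Among secreted liver factors, 54 of 177 peaks rose and 25 fell (30.5% and 14.1%, against 12.8% and 15% of all peaks). The median was 0.12, against 0.05 over all peaks. With libraries scaled to peaks near gene starts it was -0.01, against -0.08 over all peaks. Without fed library B 15 peaks of the list fell, and the lower peaks among all 52530 went from 7861 to 4845. The Fgf21 promoter (chr7:45615398-45615598) held 65.5, 49.4 and 58.7 reads in fed and 220.2, 245 and 214 in fasted libraries, with every fasted library far above every fed one (log2 difference 1.96 ± 0.15, adjusted p = 1.69e-05 by limma). At Angptl4, which encodes an inhibitor of lipoprotein lipase, 9 of 11 peaks rose. Its promoter (chr17:33781495-33781695) held 148, 50.97 and 103 reads in fed and 298, 277 and 316 in fasted libraries, so fed library B was far below the other fed libraries while the fasted ones lay close together (log2 difference 1.68 ± 0.28). A peak 302 bp past the start, in an exon (chr17:33781173-33781373) went the other way, from 155, 183 and 214 to 44.6, 73.2 and 53.4 reads. Igfbp1, which binds insulin-like growth factors, had 6 higher of 7 peaks, with a gain of 0.47 ± 0.09 at its promoter. Tsku had 11 higher and 1 lower of 15, Inhbe, an activin subunit gene, 5 higher of 9, and Gdf15, a stress hormone gene, 3 higher of 5. Angptl8, which is expressed after feeding, had 6 lower and 0 higher of 15, and Hamp, the iron hormone hepcidin, 3 lower of 8.

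Genes of lipid uptake and lipid droplets had 46 higher and 17 lower of 147 peaks (31.3% and 11.6%, against 12.8% and 15% of all peaks). Their median was 0.16. With libraries scaled to peaks near gene starts 29 were higher and 22 lower, where all 52530 peaks had 3434 and 10568. The lower count was 10 without fed library B and 11 without fasted library A, fed library A or fed library C. The promoter of Plin5, which ties droplets to mitochondria, held 424, 398 and 402 reads in fed and 675, 671 and 676 in fasted libraries, a tight change of 0.72 ± 0.06 on the log2 scale with no overlap. Plin4 rose by 1.72 ± 0.16 at its start, from 82.2, 58.9 and 74.5 to 276, 217 and 220.3 reads. Cd36, a fatty acid transporter, had 3 higher of 4 peaks, and Pnpla2, the main triglyceride lipase, 4 of 7. Mgll, which cleaves monoglycerides, had 5 lower and 2 higher of 15, and Vldlr 2 lower of 4.

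Genes that answer to glucocorticoids had 73 higher and 17 lower of 213 peaks (34.3% and 7.98%, against 12.8% and 15% of all peaks). Their median was 0.24. Klf9, a transcription factor gene induced by glucocorticoids, held 19 of the higher peaks, and Nr3c1, the gene of the receptor itself, 11 of the lower. The counts were 46 higher and 28 lower with libraries scaled to peaks near gene starts, where all 52530 peaks had 3434 and 10568. The higher count was 45 without fasted library A and also without fed library B, and the lower count 10 without fed library A. All 4 peaks of Cdkn1a rose, and its promoter (chr17:29093620-29093820) held 109.6, 92.4 and 76.2 reads in fed and 413, 349 and 387 in fasted libraries (log2 difference 2.05 ± 0.14, adjusted p = 6.88e-06 by limma). Per1, a clock gene with glucocorticoid response elements, had 8 higher of 9 peaks, although its promoter rose by only 0.44 ± 0.12 (adjusted p = 0.0178 by limma). That call ended with libraries scaled to peaks near gene starts and without fasted library A, fed library B or fed library C. Lpin1, a phosphatidate phosphatase and coactivator, had 8 higher of 15. A peak 9.33 kb before the annotated start of Lpin1 (chr12:16620200-16620400) rose from 13.1, 12.7 and 19.3 to 155, 101 and 68.98 reads. The Lpin1 promoter rose by 0.43 ± 0.15, where the groups overlapped (adjusted p = 0.0457 by limma). This promoter call ended with quantile normalization or scaling to peaks near gene starts. It also ended without fasted library A or C or fed library A, B or C.

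Klf9 had the most higher peaks of any gene, 19 of 30 with none lower, and the 30 peaks spanned 119 kb. A stretch of 11 neighbouring peaks over 40.2 kb upstream of it rose together without a break, with log2 differences of 0.39 to 1.83. Counts of peaks per gene, list and run include peaks that share bases with a neighbour, such as those 102.8 and 102.6 kb before Klf9. The 3 Klf9 peaks within 1 kb of the start did not pass, and the one nearest to it held 344, 389 and 326 reads in fed and 376, 348 and 383 in fasted libraries, with overlapping groups (0.07 ± 0.09 on the log2 scale). Ptpn1, which encodes a phosphatase that switches off the insulin receptor, had a similar arrangement, with 16 higher of 30 peaks, all between 65.4 and 105 kb before its start. The peak at the Ptpn1 start had a difference of 0.08 ± 0.09. The next genes by number of higher peaks were Rasgef1b with 13 of 20, Pim3 with 12 of 25, Nfia and Tsku with 11 of 38 and 11 of 15, and Cln8 and H2afy3 with 10 of 14 and 10 of 26. At Nfia, Tsku and Cln8 the start rose too (0.46 ± 0.14, 1.26 ± 0.19 and 0.41 ± 0.07). Cln8 had 4 higher peaks without fed library B, 5 without fed library C and 4 under the scaling to peaks near gene starts. At H2afy3 the 10 higher and 4 lower peaks became 6 and 6 under that scaling, and 5 were higher without fed library A.

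**Figure D2:**
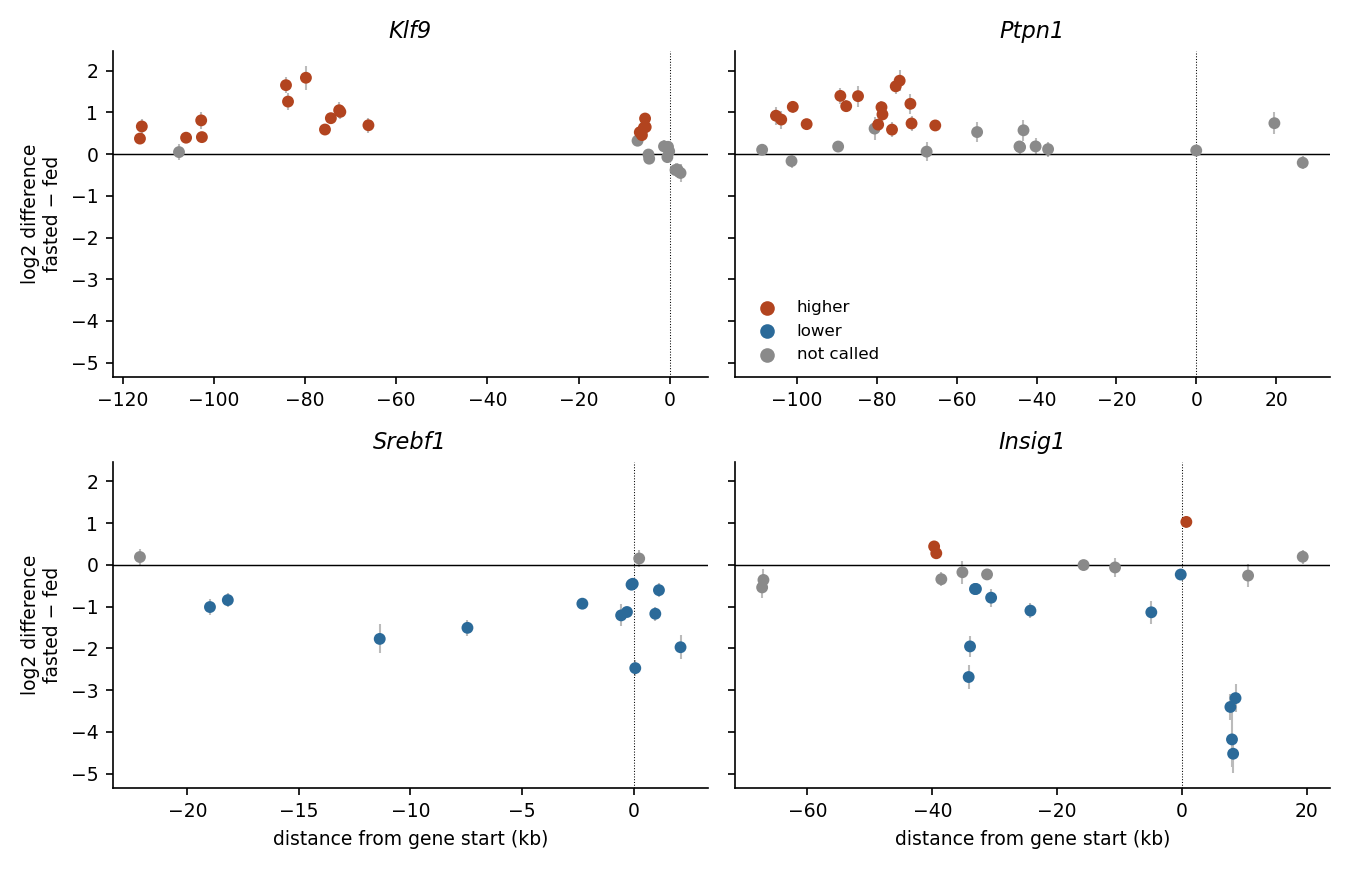
Log2 difference between fasted and fed frozen libraries, with its SE, for each peak of Klf9, Ptpn1, Srebf1 and Insig1 against distance from the gene start in kb (red higher, blue lower, grey not called). The higher peaks of Klf9 and Ptpn1 lie upstream while their starts stay near 0, and the losses at Srebf1 include the start.

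Peaks nearest to fat synthesis genes were called lower more often than higher. Of 180 peaks nearest to 21 of these genes 70 fell and 31 rose (38.9% and 17.2%, against 15% and 12.8% of all peaks), and the median was -0.22. The higher count was 20 without fed library B and 18 with libraries scaled to peaks near gene starts. Over all 52530 peaks these settings gave 3866 and 3434 higher. Srebf1, the gene of the factor that drives fat synthesis, had 13 lower of 15 peaks and none higher. The peak at 72 bp after an annotated start (chr11:60222409-60222609) held 148, 169 and 129 reads in fed and 24.6, 26.2 and 26.7 in fasted libraries. The fasted libraries lay close together and far below the fed ones, and the log2 difference was -2.47 ± 0.19 (adjusted p = 1.84e-05 by limma). Another promoter peak, 41 bp before an annotated start, held 195, 191 and 191 reads in fed and 137, 139 and 145 in fasted libraries, a smaller loss of -0.45 ± 0.11. Scd1, the desaturase that makes oleate, had 10 lower of 11 peaks, which formed an unbroken run over 38.1 kb. Near its start (chr19:44407446-44407646) it held 326, 341 and 236 reads in fed and 113, 107 and 77.9 in fasted libraries, without overlap (-1.59 ± 0.17 on the log2 scale). Thrsp, a lipogenic gene controlled by thyroid hormone, had 6 lower of 6 peaks, Fasn, the fatty acid synthase, 8 of 12, Acly, which supplies its acetyl-CoA, 6 of 9, and Pnpla5 5 of 6. The Fasn promoter fell from 284, 274 and 252 to 171, 184 and 185 reads (-0.58 ± 0.10). The 31 higher peaks came from other members, among them Gpam with 8 of 15, which starts triglyceride assembly, and Elovl5, Fads1 and Fads2 with 6, 4 and 5, which make polyunsaturated fatty acids.

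Peaks at the starts of sterol genes were mostly lower in fasted mice. The list of sterol sensing and cholesterol synthesis had 69 lower and 20 higher of 156 peaks (44.2% and 12.8%, against 15% and 12.8% of all peaks). Within 1 kb of a start it had 29 lower and 2 higher of 42, where 3.70% of all 18534 such peaks fell and 12.8% rose. The 29 peaks belonged to 18 of 24 genes, and their fed and fasted libraries did not overlap at any of the 29. Of all 686 lower peaks near gene starts 675 did not overlap either. Some of the 42 peaks share bases with a neighbour. Hmgcs1, Mvk, Pmvk, Mvd, Idi1, Fdps and Fdft1, whose enzymes act on the path from acetoacetyl-CoA to squalene, each had at least 1 lower peak at the start. A peak at the start of Fdps, the farnesyl diphosphate synthase (chr3:89101972-89102172), held 472, 457 and 401 reads in fed and 330, 304 and 289 in fasted libraries (-0.52 ± 0.09). One 301 bp past the start of Idi1, the isopentenyl diphosphate isomerase (chr13:8885807-8886007), held 419, 443 and 400 reads in fed and 255, 284 and 251 in fasted libraries. These losses were small in size but exceeded the spread between libraries at both peaks. Leaving out 1 library at a time left 20 to 27 lower peaks at these starts, and over the whole list 13 higher peaks without fed library B.

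Insig1, which holds SREBP back when sterols are plentiful, combined both directions. Its promoter changed by -0.23 ± 0.07, from 638, 712 and 622 to 557, 575 and 547 reads, a call that ended without fasted library A, fed library A or fed library B. A group of 4 peaks 7.75 to 8.57 kb past its start fell by 3.19 to 4.52 on the log2 scale, among them one (chr5:28079059-28079259) with 76.2, 63.7 and 58.7 reads in fed and 3.64, 6.10 and 6.68 in fasted libraries. Fasted means at those 4 peaks were only 3.82 to 5.62 normalized reads, so the sizes of these losses are poorly fixed. A peak 691 bp past the Insig1 start, in an intron, instead rose, from 126, 100.3 and 156 reads in the fed to 259, 257 and 256 in the fasted libraries (1.03 ± 0.14). At Insig2, which has a liver promoter used in fasting, 5 of 11 peaks rose and 1 fell. The other higher peak at a sterol gene start was one of these (chr1:121332535-121332735), with 179.9, 166 and 161 reads in fed and 250.3, 246 and 251 in fasted libraries (0.56 ± 0.10).

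At sterol gene starts the loss was called mainly in frozen liver. Of the 29 lower peaks 25 (86.2%) were not called in fresh liver of the same mice, against 38.8% of all lower peaks near gene starts. In fresh liver 4 of the 42 peaks were called lower and 1 higher, and the median difference was -0.08, against -0.34 in frozen liver. Of all 18534 peaks near gene starts 639 were called lower in fresh liver. Their median was 0.11 in fresh and 0.14 in frozen liver, so the sterol median lay below it in both preparations. Near gene starts, frozen calls not made in fresh liver had a median size of 0.39, against 0.63 for calls in both. The frozen difference was the lower one at 39 of 42 sterol peaks, a count that was not made over all peaks. The fresh libraries held 386, 377 and 368 reads in fed and 360, 361 and 358 in fasted mice at the Idi1 peak at 301 bp. The difference between the preparations was -0.60 ± 0.10 at this peak. Over all peaks no such difference passed limma without pairing (adjusted p = 0.244 at the Idi1 peak), with 2702 peaks at an unadjusted p under 0.05 and 23 of the 42 sterol starts among them. With the libraries paired by column letter, as a replicate block, 395 of 52530 peaks passed, and 13 of them were among the 42 sterol starts (31.0%, against 0.410% of all peaks near gene starts). The 13 belonged to 10 genes, with adjusted p = 0.000745 at the Idi1 peak by limma. After quantile normalization 12 of the 13 still passed in the paired fit, but with an untrended prior none did, so the calls depend on that setting.

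**Figure D3:**
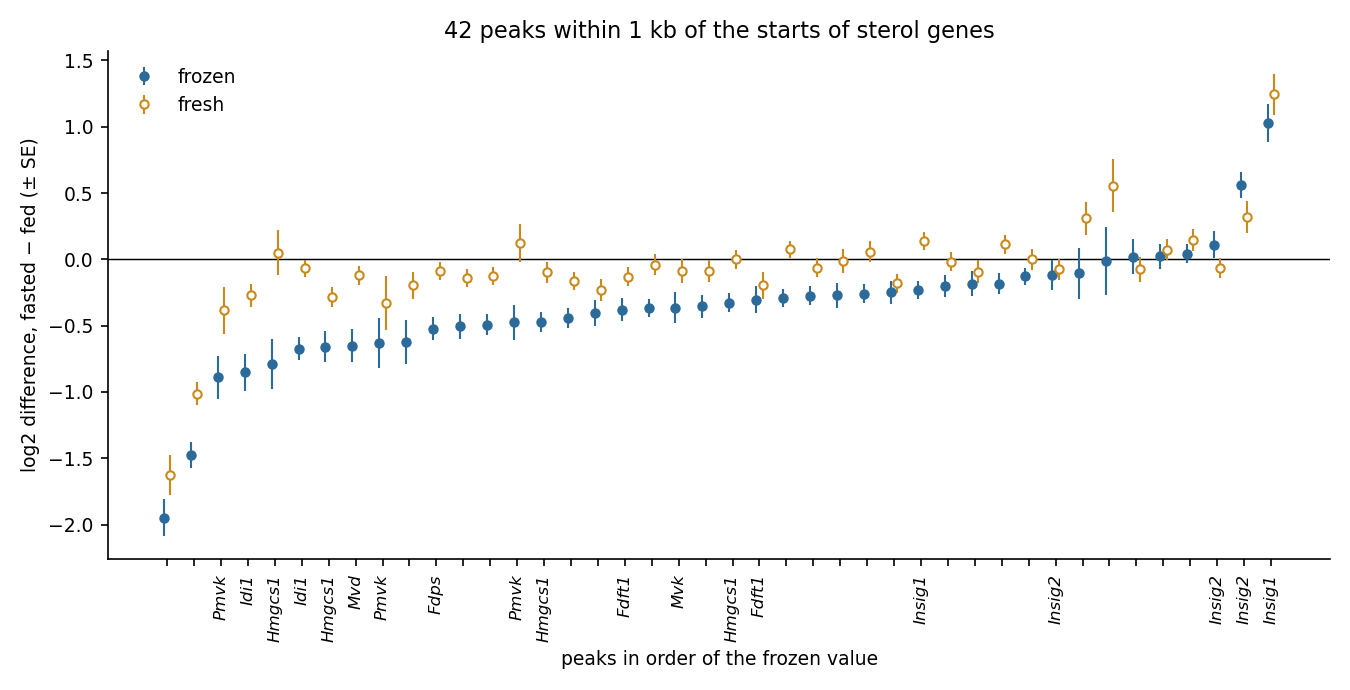
Log2 difference between fasted and fed libraries, with its SE, at the 42 peaks within 1 kb of the starts of sterol genes, in frozen (blue, filled) and fresh (orange, open) liver, ordered by the frozen value and labelled for the genes of the list that the text names. The frozen value is the lower one at 39 of the 42 peaks.

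The sterol element was searched because SREBP factors bind it. Written TCACNCCAC and read on both strands, it occurred in 13 of 255 promoter windows (250 bp before to 50 bp after a RefSeq start) that shared at least 100 bp with a lower peak, or 5.10%. It occurred in 0.540% of 1112 windows of higher peaks, 1.16% of 8825 windows with any peak and 1.24% of all 32851 windows. Of the 24 sterol genes 16 had a window in the table, and only that of Hmgcs1 held the element. In 4 of the 13 windows the gene is not the one nearest to the peak, in 2 the element lies outside the peak, and in 7 it lies inside a lower peak at the start of the gene itself. The 6 elements printed here are from these 7, with 10 bases on each side and the element in capitals, 5′ to 3′ on the gene's strand, so that an element on the other strand appears as its reverse complement. The printed elements are at chr13:119690204-119690232 for Hmgcs1 (plus strand), which makes HMG-CoA, and chr11:78322983-78323011 for Aldoc (plus), an aldolase gene. Those of Cyp2b10 and Ugt1a5, both of drug metabolism, are at chr7:25897641-25897669 (plus) and chr1:88165950-88165978 (plus). Those of Camk1d and Cdc42ep4 are at chr2:5676096-5676124 (minus) and chr11:113751377-113751405 (minus).
Hmgcs1: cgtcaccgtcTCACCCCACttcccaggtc
Aldoc: ggcagaggaaTCACTCCACctcactactc
Cyp2b10: ctgctggagcGTGGAGTGAagtcaacatt
Ugt1a5: gggccacccaGTGGCGTGAcaaggttgga
Camk1d: ttcctgtctgGTGGGGTGAtctgcaaaag
Cdc42ep4: actgttcgggGTGGGGTGAgtgggcaggt
The peaks that hold them changed by -0.33 ± 0.07 at Hmgcs1, -0.32 ± 0.09 at Aldoc, -0.70 ± 0.14 at Cyp2b10, -0.78 ± 0.16 at Ugt1a5, -1.43 ± 0.27 at Camk1d and -0.64 ± 0.17 at Cdc42ep4 on the log2 scale. A match is a run of letters and not a shown binding site. Windows of lower peaks were also poorer in GC, with a median of 55.7% against 63.3% in higher and 62.0% in all windows with a peak. Of the other motifs, the full cAMP response element TGACGTCA was in 4.05% of higher, 0.392% of lower and 3.43% of all windows with a peak, and the GC box CCCCGCCC in 39.1%, 18.8% and 37.6%. Other motifs were also more frequent in windows of lower peaks than in all windows with a peak. The PPAR-RXR core GGTCANAGG was in 3.92% of lower, 1.53% of higher and 1.69% of all windows with a peak, and the glucocorticoid receptor motif ACANNNTGT in 7.84%, 3.24% and 3.74%. The NFI motif TTGGCA was in 17.3%, 10.8% and 11.6%, and the STAT motif TTCNNNGAA in 8.63%, 4.68% and 6.70%. The AP-1 site TGANTCA was in 7.55% of higher and 8.24% of lower windows against 4.54% of all windows with a peak.

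Among genes of growth hormone signalling, 36 peaks were lower and 8 higher of 146 (24.7% and 5.48%, against 15% and 12.8% of all peaks), with a median of -0.14. The counts were 46 lower and 4 higher with libraries scaled to peaks near gene starts, and 21 and 6 without fed library B. The higher count was 5 without fed library A and 4 without fed library C. Over all 52530 peaks that scaling gave 10568 lower and 3434 higher, and leaving out fed library B 4845 and 3866. Cish, the STAT5 feedback inhibitor, had 7 lower of 9, among them one 8.56 kb from its start (chr9:107305118-107305318) with 109.6, 166 and 141 reads in fed and 31.9, 36.6 and 28.9 in fasted libraries, without overlap (-2.05 ± 0.20 on the log2 scale). Prlr, the prolactin receptor, had 8 lower and 1 higher of 21, and Cux2, a STAT5-dependent factor that is higher in female liver, 5 lower of 12. In an intron of Cux2 (chr5:122000304-122000504) the reads fell from 242, 280.3 and 313 to 63.7, 77.6 and 84.6. Igf1, the main target hormone, had 5 lower and 1 higher of 22 peaks, and its promoter changed by -0.58 ± 0.19 (adjusted p = 0.0389 by limma). That call ended after quantile normalization and without fasted library B or C or fed library A or B. The promoter of Socs2, another target, did not pass (0.10 ± 0.21), and its fed libraries ranged from 141 to 309 reads.

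Transcription factor genes of the hepatocyte split by member. Foxa2, a pioneer factor, had 12 lower and 0 higher of 28 peaks, and its promoter (chr2:148046878-148047078) fell from 281, 274 and 322 to 142, 132 and 120.2 reads, with a log2 difference of -1.15 ± 0.11 (adjusted p = 7.03e-05 by limma). Foxa1 had 6 higher and 2 lower of 12, and Foxa3 3 higher of 3. Cebpb, an early fasting factor, had 7 higher of 8 and Cebpa 5 lower of 19. A peak 2.42 kb past the start of Cebpd (chr16:15889606-15889806) rose from 32.2, 12.7 and 21.03 to 218, 136 and 196 reads, without overlap. Over the list of 20 genes 41 peaks rose and 41 fell of 234 (17.5% each), and 23 and 57 with libraries scaled to peaks near gene starts. The higher count was 26 without fasted library A, 25 without fed library A and 26 without fed library B. Krueppel-like factors had 41 higher and 14 lower of 133 (30.8% and 10.5%, against 12.8% and 15% of all peaks), with a median of 0.12. Under that scaling they had 27 and 18 with a median of -0.01, against -0.08 over all peaks, and 8 were lower without fed library B. Of the higher peaks Klf9 held 19 and Klf3 held 7. Genes of AP-1 and the immediate early response had 26 higher and 14 lower of 110 (23.6% and 12.7%). These became 14 and 15 under that scaling, and the higher count was 12 without fed library B and 16 without either fed or fasted library A. All 52530 peaks had 3434 higher and 10568 lower under that scaling. Without fed library B they had 3866 and 4845.

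In glucose metabolism the list counts stayed near those of all peaks. Gluconeogenesis genes had 23 higher and 24 lower of 160 peaks and glycolysis genes 14 and 12 of 83, against 12.8% higher and 15% lower of all peaks. With libraries scaled to peaks near gene starts they had 11 and 32, and 4 and 17, where all 52530 peaks had 3434 and 10568. Without fed library B they had 12 and 12, and 7 and 8, where all peaks had 3866 and 4845. The Pck1 promoter, at the enzyme that commits carbon to glucose, held 411, 382 and 336 reads in fed and 473, 447 and 456 in fasted libraries (log2 difference 0.29 ± 0.08, adjusted p = 0.0235 by limma), a call that ended under either other scaling and without fasted library A, fed library B or fed library C. The promoter of G6pc, the last step of glucose output, did not pass (0.18 ± 0.11), with overlapping groups. Ppargc1a, a coactivator of the fasting liver, rose at its promoter from 118, 102 and 93.7 to 207, 139 and 189 reads (0.75 ± 0.16). A peak 14.9 kb before the glucagon receptor gene Gcgr (chr11:120515730-120515930) held 166, 166 and 169 reads in fed and 323, 331 and 307 in fasted libraries (0.94 ± 0.09). The promoter of Pklr, the liver pyruvate kinase gene, did not pass (-0.16 ± 0.07), whereas a peak 2.57 kb before Pklr fell from 86.96, 126 and 67.5 to 24.6, 26.2 and 33.4 reads. Of the insulin cascade, 26 peaks rose and 20 fell of 155, with 16 of the higher from Ptpn1, and 18 and 25 with libraries scaled to peaks near gene starts. A peak in an Insr exon changed by -1.16 ± 0.13 and one in a Pik3r1 intron by -1.36 ± 0.15.

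The remaining lists had few called peaks, or counts in both directions, and their counts moved with single libraries and with the scaling. Over all peaks 12.8% were higher and 15% lower. Glycogen genes had 5 higher and 10 lower of 87, amino acid and urea cycle genes 18 and 26 of 222, clock genes 16 and 18 of 150, and autophagy and lysosome genes 13 and 16 of 105. With libraries scaled to peaks near gene starts these were 4 and 16, 8 and 41, 8 and 27, and 5 and 23. Within them, a peak near Slc38a4, an amino acid transporter gene (chr15:97075343-97075543), rose from 33.4, 14.3 and 28.9 to 144, 126 and 171 reads. One near Prodh, which degrades proline, changed by -1.24 ± 0.13, and one near Sqstm1, an autophagy receptor gene, by 0.96 ± 0.14. Bile acid genes had 17 higher and 7 lower of 101, with 6 of the higher at Abcb4, the phospholipid pump, but 8 and 11 with libraries scaled to peaks near gene starts. The cAMP and glucagon list had 24 and 18 of 124, the FOXO list 17 and 14 of 87, and receptors and coactivators of the PPAR family 23 and 29 of 142, and with libraries scaled to peaks near gene starts these were 15 and 23, 9 and 23, and 10 and 39. Heat shock genes had 5 higher and 1 lower of 43, led by the Hspb1 promoter with 114, 115 and 105 reads in fed and 285, 302 and 318 in fasted libraries (1.43 ± 0.10, without overlap). Genes of reticulum stress had 11 and 8 of 78, or 2 and 16 with libraries scaled to peaks near gene starts.

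**Figure D4:**
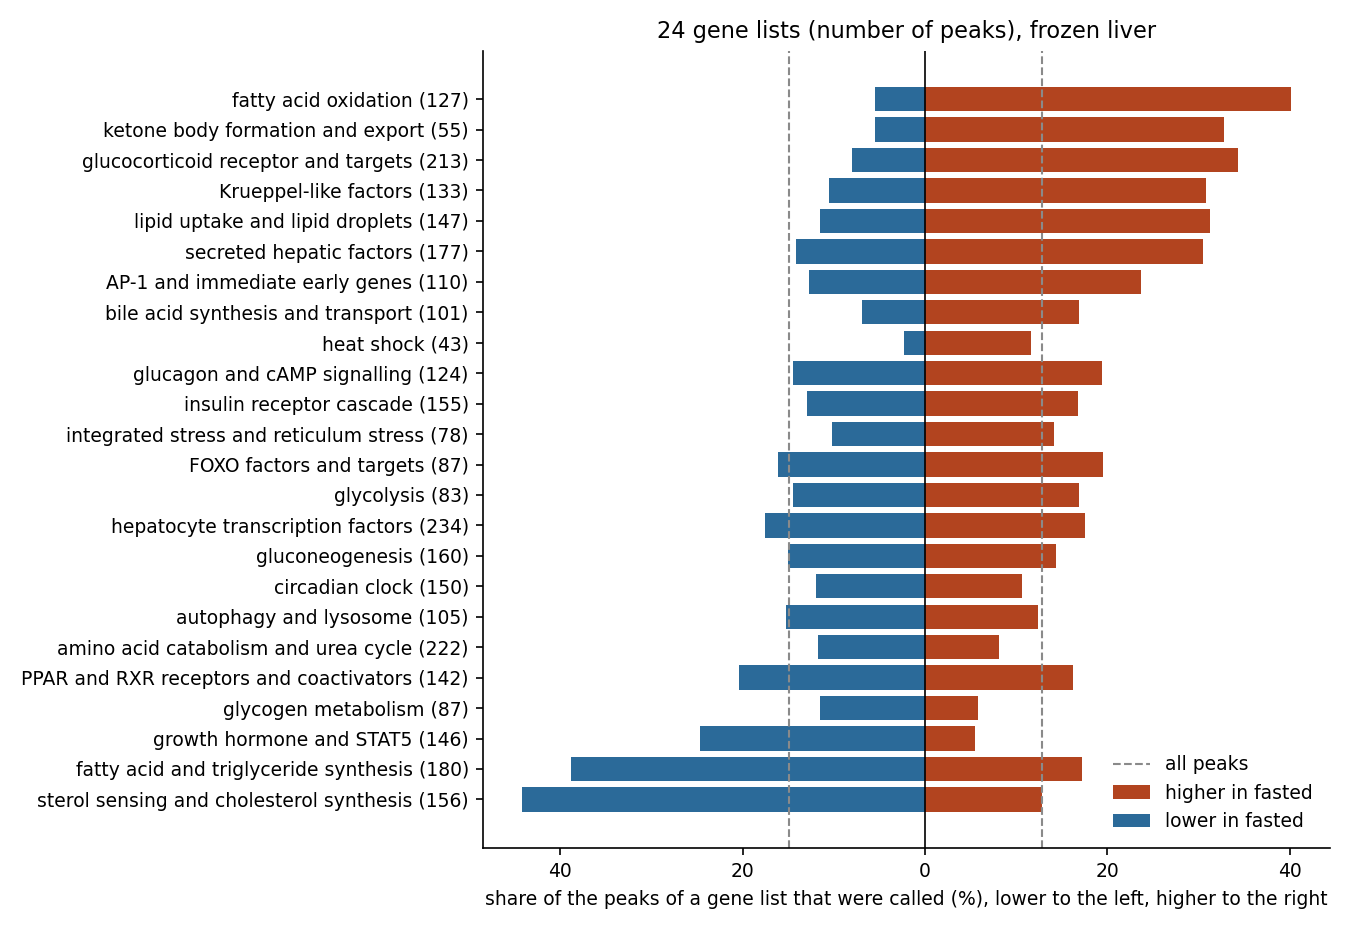
Share of the peaks of 24 gene lists that were called higher (red, right) or lower (blue, left) in fasted frozen libraries, in percent, with the number of peaks in brackets and dashed lines at the shares of all peaks. Fatty acid oxidation reaches 40.2% higher and sterol synthesis 44.2% lower.

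Neighbouring called peaks mostly changed in the same direction. Of 11316 neighbouring pairs 200 bp to 1 kb apart, 1168 had both peaks called, and 96.0% of these went the same way. Beyond 25 kb 1154 of 13588 pairs had both called, and 65.1% of these went the same way. Peaks under 200 bp apart share bases, and only these pair counts leave them aside. Runs of at least 5 neighbouring peaks all called in the same direction, with peaks that share bases counted separately, numbered 99 higher and 102 lower. The number to expect without grouping was not computed. The longest held 16 higher peaks in 60.6 kb (chr8:10879628-10940203), nearest to 4833411C07Rik, 3930402G23Rik and B930025P03Rik, with log2 differences of 0.44 to 2.14. A run of 11 higher peaks went across Capg, Elmod3 and Retsat, of which Retsat encodes a retinol saturase controlled by PPAR factors. The longest run of losses held 12 peaks in 128 kb from Aspg to Kif26a, and 11 lower peaks surrounded Edn2, an endothelin gene (-0.53 to -1.84). The genes with the most lower peaks were 4930542M03Rik with 16 of 18, Slc6a6, a taurine transporter gene, with 14 of 23 (9 without fed library B), Srebf1, and Foxa2, Insig1 and Sh3pxd2a with 12 each. In all, 7198 of 15002 genes with a peak had at least 1 called, and 1110 had both higher and lower peaks.

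Gains and losses were placed differently in the genome. Within 1 kb of a gene start 2379 peaks rose and 686 fell of 18534. The share of lower peaks climbed with distance, from 3.70% there to 16.9% at 1 to 5 kb, 20.8% at 5 to 25 kb, 23.1% at 25 to 100 kb and 24.7% beyond, while the share of higher peaks stayed between 11.3% and 13.9%. First introns had 14.9% lower peaks and later introns 24.1%. Of 1297 peaks within 1 kb of a start whose detailed annotation names a CpG island, 193 rose and 13 fell. These are 14.9% and 1.00%, against 12.8% and 3.70% of all peaks within 1 kb. Overlap of the other peaks with islands was not measured. ERVK repeats, a family of endogenous retroviruses, had 183 lower and 55 higher of 695 peaks (26.3% and 7.91%), with a median of 80.1 reads. The lower share was 23.2% in all LTR repeats and 23.5% in the ERVL-MaLR family, near that of peaks far from gene starts. The X chromosome had 6.95% lower peaks against 13.1% to 16.7% on the autosomes. Level moved with these shares: in 4 equal classes by mean reads, the class with the fewest reads had 26.0% lower and 7.57% higher peaks, and that with the most had 5.81% and 15.4%. Peaks near gene starts had a median of 168 reads, against 90.04 to 99.5 in the distance classes beyond. Their part in each other's pattern was not tested.

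**Figure D5:**
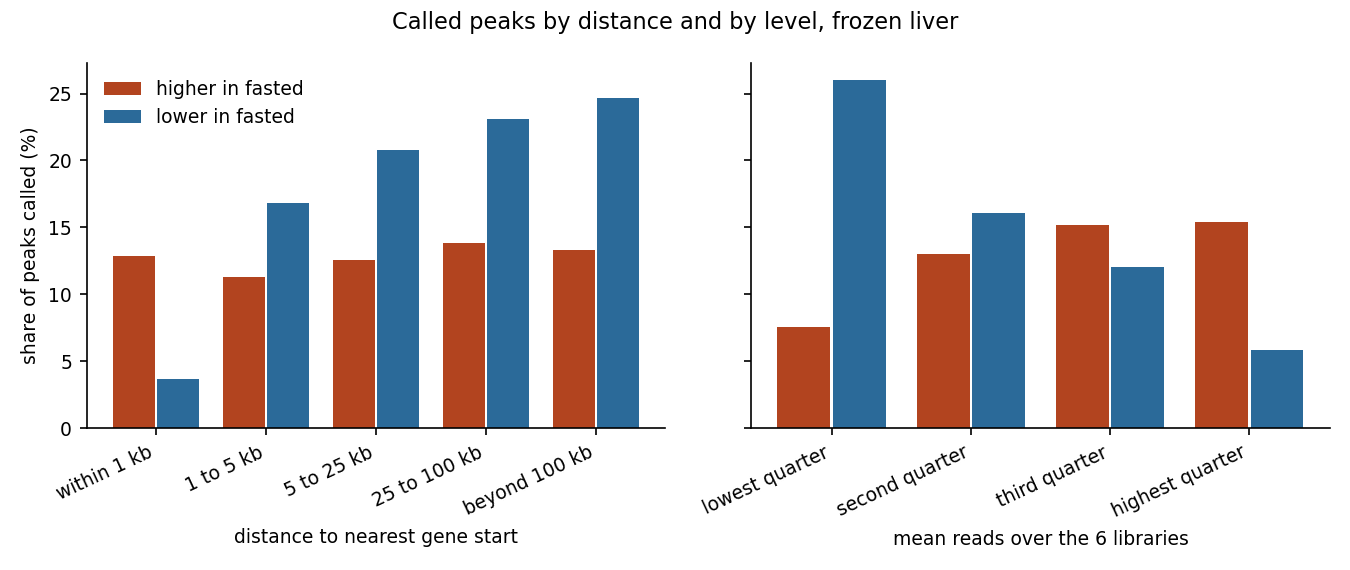
Share of peaks called higher (red) or lower (blue) in fasted frozen libraries, in percent, by distance to the nearest gene start (left) and by 4 equal classes of the mean reads over the 6 libraries (right). Lower peaks rise from 3.70% within 1 kb to 24.7% beyond 100 kb and decline with level from 26.0% to 5.81%.

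Peaks within 1 kb of a gene start took up 46.4% ± 0.78 (SD, n = 3) of all normalized reads of fed libraries and 48.9% ± 0.51 of fasted ones, a difference of 2.49 percentage points without overlap. The exact two-sided permutation test gave p = 0.1, the smallest that 3 against 3 libraries allow. Under the scaling that gives these peaks a common median in every library, 840 of them rose and 1311 fell. The count of higher peaks near starts was 969 without fed library B, 1224 without fed library A and 1236 without fasted library A, and that of lower ones 365 and 434 without fed libraries B and A.

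Of the 14578 peaks called in frozen liver, 4503 were not called in fresh liver, where 27.6% of the peaks were called, and 4402 were called in fresh and not in frozen liver. The 4503 comprised 3010 higher and 1493 lower peaks, with a median size of 0.49 on the log2 scale, and 95.4% of them had the same sign in fresh liver. Of them 2714 had an unadjusted p above 0.05 in fresh liver. The largest of these with no overlap in frozen liver and a level above the median were, among higher peaks, nearest to Bbs10, Plppr1, Cdip1, Trp53inp2 and Impa2. Trp53inp2, which promotes autophagy, had a peak 7.77 kb before its start (chr2:155373987-155374187) with 157, 93.97 and 109.5 reads in fed and 204, 197 and 216 in fasted libraries in frozen liver, and a log2 difference of 0.80 ± 0.17 there against 0.17 in fresh liver. Cdip1, a gene of p53-dependent cell death, rose at its promoter by 0.81 ± 0.18 against 0.25. Among lower peaks they were nearest to Gna14, Aagab, Esrrb, Mir6368 and Platr26. Gna14, a G protein subunit gene, held 181, 172 and 204 reads in fed and 99.2, 107 and 82.3 in fasted libraries in its 5′ UTR (chr19:16435839-16436039), a change of -0.95 ± 0.14 against -0.13 in fresh liver. In the paired fit the difference between preparations passed limma at the peaks near Plppr1, Trp53inp2, Impa2, Gna14, Aagab, Mir6368 and Platr26, with adjusted p from 0.00270 to 0.0437, and did not at Bbs10, Cdip1 and Esrrb. These named peaks were chosen by their values in the same frozen and fresh libraries. The choice favours a difference, so the passes are no separate evidence of one. The frozen call near Esrrb ended without fed library A or fed library B. Of the 395 peaks that passed in the paired fit, 166 were called in frozen and not in fresh liver and 180 in both. The Pdk4 promoter was among the latter, with a gain of 0.78 ± 0.07 in frozen against 0.24 in fresh liver (adjusted p = 0.000836 by limma in the paired fit). Scd1 at its start was another, with -1.59 against -0.84 (adjusted p = 0.00548). None of these differences between preparations passed without pairing or, in the paired fit, with an untrended prior.

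The authors' deposited table lists 15482 peaks with an adjusted p under 0.05 in frozen liver, 7101 higher and 8381 lower. Of these 13968, or 90.2% of the calls in the authors' deposited table and 95.8% of the limma calls, were called in both, none in the opposite direction.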

How the data were processed

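ATAC-seq was run on bead-bound hepatocyte nuclei of 12 libraries, 3 from fed and 3 from fasted mice in each preparation, fresh and frozen. The deposited table holds 52530 peaks of 200 bp on mm10, and per its file headers each library column holds reads per peak, a normalized signal. Every deposited value of a library was a whole multiple of 1 step (within 1e-06 of a step), taken as the value of 1 read, and depths were computed with it. Tests used the log values as below, and no count test was run. BWA 0.7.5a-r405, SAMtools, HOMER and DESeq2 are named in the submitters' processing notes, without roles. The authors' deposited table also gives log2 fold changes and adjusted p-values, used only for the closing comparison, and a peak score deposited by the authors, which was not used.

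Differences were computed on log2(signal + 1) of the 6 frozen libraries over all peaks with limma 3.58.1 in R 4.3.3 (trended empirical Bayes), two-sided, with Benjamini-Hochberg adjustment over all 52530 peaks, and a peak was called at an adjusted p under 0.05. No peak was filtered. The script was tested on simulated data. Fitted differences are fasted minus fed, ± SE, and at peaks of few reads the pseudocount makes them smaller. The 3 mice of a group are separate animals. Library depth gives a counting error of 8.67% to 14.0% for a median peak. A peak lies near a gene start within 1 kb of the start in the authors' annotation.

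Peaks were named by these rules: the 10 largest gains and 10 largest losses among called peaks above the median level whose groups do not overlap, 1 per gene; the 8 genes with the most higher and the 8 with the most lower peaks; the peak nearest to the start of 30 panel genes; the peaks of lowest p for up to 3 genes in each list; the 5 higher and 5 lower peaks called in frozen liver with an unadjusted p above 0.05 in fresh liver; and the longest runs. Some of the items these rules chose are not reported here. Other genes of a list are given by their counts of called peaks, and sterol gene starts, Angptl4, Insig1 and Insig2 were described in more detail after their values were seen. The members, gene lists and tests were chosen with earlier results of these data known. Promoter windows were taken from the RefSeq table, and distal peaks are given without sequence.

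Per the labels every mouse gave 1 fresh and 1 frozen library, but the letters A to C of the columns match no mouse number. Same-letter fresh and frozen libraries deviated together from their group means, with correlations over peaks of 0.329 to 0.640 against at most 0.0213 for other letters, so the letter was used as a replicate block in the comparison of preparations. This pairing comes from the data and not from the labels. Alternatives were 2 pseudocounts, leaving out the lowest 25% of peaks, other scalings, a fit over all 12 libraries, leaving out each library in turn, and, added after seeing the data, an untrended prior and quantile normalization in the paired fit.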

Additional observations from a re-analysis of the deposited data

How the results depend on the processing

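The count of called peaks, 14578, was 9667 without the lowest 25% of peaks, of which 4227 were lower, and 4591 for differences above 1 in size, of which 1109 were higher and 3482 lower. With libraries scaled to peaks near gene starts, which shifts the median difference by -0.13, 3434 peaks were higher and the higher share of calls went from 46.1% to 24.5%. Without the lowest 25% of peaks that share was 56.3%. Leaving out 1 library gave 8711 to 14001 called peaks, 3866 to 6075 higher and 4845 to 7990 lower, and 2.13 to 2.90 percentage points for the share of reads near gene starts. The lowest totals came without fed library B, and the higher count also moved by over 1.5 times without fasted library A (4116) and fed library A (4413). Without fed library B at least 1 count of 22 of the 24 lists moved by over 1.5 times, without fed library A of 16, without fasted library A of 14, and under the scaling to peaks near gene starts of 19. The difference between preparations passed limma at 0 peaks without pairing (2702 at an unadjusted p under 0.05), at 395 with the letter as replicate block, at 608 with the replicate block after quantile normalization, of which 224 were shared with the 395, and at 0 with the replicate block and an untrended prior (5913 at an unadjusted p under 0.05). The cause was not tested. Of 110 called peaks chosen by the naming rule, 103 kept their call under every alternative in which they were tested and none reversed. Leaving out the lowest 25% of peaks kept 111 of the 123 named peaks for testing. The other 7, among them Igf1, Lpin1, Pck1, Per1, Insig1 and Esrrb, lost it under at least 1. Fasted library C held the fewest reads, which limits what can be seen at peaks of few reads.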
